A study of Homo sapiens with 6 samples.

Results

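The rows described here are those of small nucleolar RNAs (snoRNAs) and small Cajal body RNAs (scaRNAs) in RNA-seq of MDA-MB-231 cells, an established line of triple-negative breast cancer. They were chosen by name and by detection: a row counted as a member if its name began with SNORA, SNORD or SCARNA and its value was above 0 in all 6 libraries. This gave 65 rows of the 383 that carry such a name and of 25365 rows in the whole table. The choice used the level of each row and asked the same of both groups, so detection itself is a description with no test. The si-NRDE2-2 libraries came from 3 samples of cells transfected for 48 h with 20 nM of a single siRNA against NRDE2 (Ambion s30064), and the others from 3 samples given 20 nM of a negative control siRNA (si-Control, Ambion AM4611). Both groups were otherwise the same line, and no second NRDE2 siRNA and no untransfected sample was analysed here. NRDE2 is a nuclear protein that binds MTREX, the RNA helicase that feeds nuclear RNA to the exosome. Libraries were made from polyadenylated RNA with a stranded kit. Values are FPKM (fragments scaled for transcript length and library size) as the authors deposited them, with a scaling on short rows that is steeper than annotated length alone gives.

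SnoRNAs are short nuclear RNAs that guide the chemical modification of other RNAs. Those of the box C/D class (SNORD names) guide 2′-O-methylation by fibrillarin, and those of the box H/ACA class (SNORA names) guide pseudouridylation by dyskerin; scaRNAs do the same for spliceosomal RNAs in Cajal bodies. In human cells most of them are released from introns of host genes, many of which encode ribosomal proteins and translation factors, and their ends are then trimmed by exonucleases that include the nuclear exosome. A mature snoRNA has no poly(A) tail. Fragments counted on these rows in poly(A)-selected libraries are therefore read here as pieces of host transcripts, retained introns or unfinished precursors, and not as the amount of mature snoRNA; which of these a fragment came from was not tested.

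The sequences below are those of the members that the results turn on, shown so that the length and the class of each row can be seen. They are the GENCODE 29 entries read from the GRCh38 genome, whereas the table is of hg19. The first set holds the 3 rows whose value differed past the test's threshold, and SNORA8, the row with the most fragments. Capitals mark an H box (ANANNA, the match nearest the middle) and the ACA that lies 3 bases before the end. SNORA48 lies at chr17:7574713-7574847 on the plus strand in EIF4A1, SNORA5C at chr7:45104906-45105042 on the minus strand in TBRG4, SNORA6 at chr3:39408389-39408539 on the plus strand in RPSA, and SNORA8 at chr11:93732361-93732499 on the minus strand in TAF1D.
SNORA48: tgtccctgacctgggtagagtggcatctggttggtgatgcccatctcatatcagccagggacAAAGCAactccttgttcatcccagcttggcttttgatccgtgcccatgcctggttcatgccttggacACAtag
SNORA5C: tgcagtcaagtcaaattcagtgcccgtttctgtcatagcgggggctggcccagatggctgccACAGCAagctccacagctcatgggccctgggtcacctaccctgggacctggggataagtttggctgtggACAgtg
SNORA6: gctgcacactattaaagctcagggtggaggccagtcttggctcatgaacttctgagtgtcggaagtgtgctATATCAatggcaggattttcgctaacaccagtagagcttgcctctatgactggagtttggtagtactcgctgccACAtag
SNORA8: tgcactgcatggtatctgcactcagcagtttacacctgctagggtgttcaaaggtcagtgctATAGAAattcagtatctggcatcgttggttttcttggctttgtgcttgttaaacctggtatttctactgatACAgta

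SNORA5C has a pair of relatives in the same host gene, SNORA5A at chr7:45104349-45104482 and SNORA5B at chr7:45105968-45106099, both on the minus strand and marked in the same way. SNORA5A and SNORA5B were identical at 120 of 134 aligned positions (89.6%). SNORA5C was identical to SNORA5A at 68.1% of positions and to SNORA5B at 66.2%.
SNORA5A: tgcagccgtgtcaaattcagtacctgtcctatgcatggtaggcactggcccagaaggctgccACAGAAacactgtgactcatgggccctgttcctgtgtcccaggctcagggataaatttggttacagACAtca
SNORA5B: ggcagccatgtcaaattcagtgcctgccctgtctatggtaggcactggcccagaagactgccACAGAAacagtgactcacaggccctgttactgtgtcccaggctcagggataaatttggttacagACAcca

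The box C/D class is shown by SNORD17, at chr20:17962710-17962946 on the minus strand in SNX5, and by SNORD104, at chr17:64146083-64146152 on the plus strand, for which no host row was found. Capitals mark the C box core (TGATGA) and the D box (CTGA). Lengths used for the values are RefSeq's, which differ by some bases for a few rows (80 in place of 70 for SNORD104). SNORD17 is the longest SNORD member and SNORD104 is among the shortest, and this difference in length governs how their FPKM values read.
SNORD17: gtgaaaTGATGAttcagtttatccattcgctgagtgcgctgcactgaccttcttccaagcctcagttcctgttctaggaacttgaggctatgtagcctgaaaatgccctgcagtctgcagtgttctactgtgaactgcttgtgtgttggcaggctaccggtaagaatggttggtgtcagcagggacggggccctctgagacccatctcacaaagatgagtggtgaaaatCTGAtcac
SNORD104: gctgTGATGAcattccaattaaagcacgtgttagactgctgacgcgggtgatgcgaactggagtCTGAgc

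The classes are defined by these boxes, so the counts here describe the rows and are no test of their names. Searched on the RNA's own strand, TGATGA stood in the first 20 bases of 9 of the 17 SNORD members with a GENCODE sequence (52.9%) and of 0 of 40 SNORA members, against 0.272% of 5875 other annotated small RNAs of 60 to 450 bases. CTGA stood in the last 15 bases of 15 of the 17 SNORD members (88.2%) and of 2 of the 40 SNORA members (5.0%), against 4.14% of the other small RNAs. ACA stood 3 bases before the end in 30 of 40 SNORA members (75%) and in 0 of 17 SNORD members, against 0.936%. These were exact letter matches, and a row without one may hold a variant box.

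Detection differed by class, and went with length among SNORD and SCARNA rows but not among SNORA rows. Members made up 40 of 105 SNORA rows (38.1%), 6 of 24 SCARNA rows (25%) and 19 of 254 SNORD rows (7.48%). Another 100 rows were above 0 in 1 to 5 libraries and 218 were at 0 in all 6. The median annotated length was 133 bases for members, which ran from 80 to 421, and 77 bases for the rows at 0 in every library. These medians mix the classes, since 195 of the 218 rows at 0 are SNORD rows. Within classes, members and rows at 0 had medians of 93 and 75 bases (SNORD), 272.5 and 138 (SCARNA), and 134 and 134 (SNORA). All 108 rows of the SNORD113, SNORD114, SNORD115 and SNORD116 copies, which lie in imprinted clusters active mainly in brain and placenta, were at 0 throughout. These copies are 108 of the 195 SNORD rows at 0, so they enter the SNORD share of 7.48% and the median of 75 bases. Neither figure was taken again without them. Of the 4 genes listed here as making such RNAs from a promoter of their own, SCARNA2 alone had a row, and it missed membership by 1 library: it had 0.164, 0 and 0.102 FPKM in si-NRDE2-2 libraries, against 0.155, 0.297 and 0.169 FPKM in si-Control libraries. SCARNA17, a member, had 4, 2 and 5 fragments with si-NRDE2-2, against 5, 5 and 3 with si-Control, while SNHG22, the gene that contains it, was at 0 in 5 of the 6 libraries.

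FPKM on rows this short stood for very few fragments. Low values were whole multiples of a step, the worth of 1 fragment in that library, which depends on the length of the row, and 55 of 65 members (84.6%) came out whole within 0.02 in all 6 libraries. For 39 of the 55 at least 2 rows of that length gave the same step. For 14 the step came from the row or rows of that length alone, placed by the line through the shared steps, and the fragments of these rows rest on that line. SNORD35B fitted only a step of its own, which differs from that of another row of its length, and SNORA25 the step of a length within 2 bases. In si-Control replicate 1 a single fragment added 109 FPKM to a row of 80 bases and 95.1 FPKM to a row of 81 bases. The same fragment added 3.57 FPKM at 133 bases, 0.352 FPKM at 237 bases and 0.0773 FPKM at 421 bases. From 80 to 421 bases its worth thus fell far more than in proportion to length. Scaling by annotated length alone does not give these steps, and how length was adjusted is not stated. SNORD104 with 786 FPKM and SNORD17 with 3.33 FPKM (means over all 6 libraries) thus rested on 6.83 and 9 fragments per library, and the row with the lower FPKM had more fragments. Levels between rows are for this reason compared in fragments below, and FPKM only within a row.

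**Figure D1:**
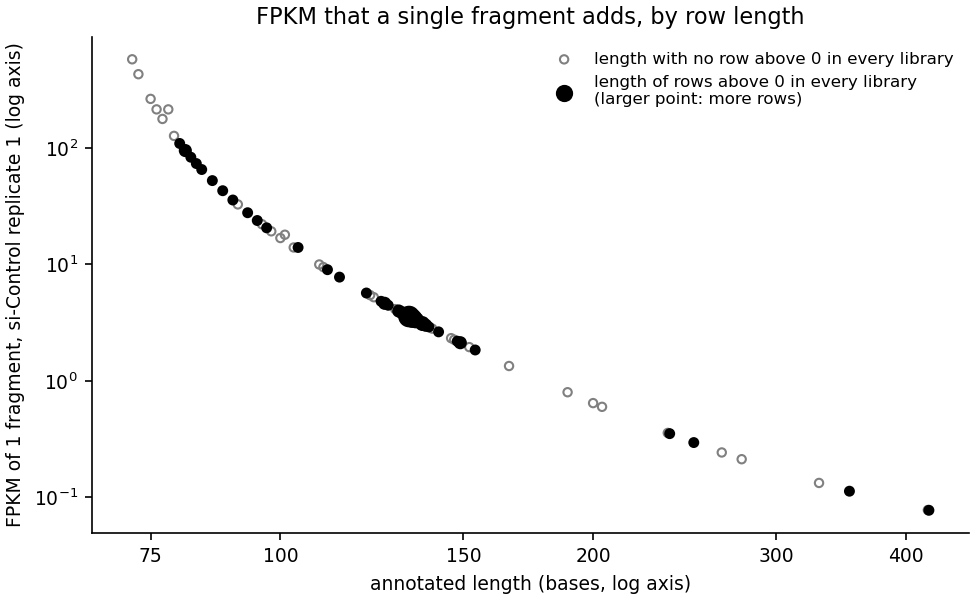
FPKM that 1 fragment added in si-Control replicate 1 (log axis) against the annotated length of the row in bases (log axis). Each point is a row length, filled where rows of that length were above 0 in every library and larger where there were more of them. The worth of a fragment falls from 109 FPKM at 80 bases to 0.0773 FPKM at 421 bases.

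The median member had 5.5 fragments per library. A mean under 5 fragments was found for 26 members, under 10 for 40 and under 20 for 46; the other 9 of the 55 had at least 20, and 19 members had at least 1 library with a single fragment. Summed over the 55 rows, si-NRDE2-2 libraries held 601, 617 and 408 fragments, against 652, 685 and 602 in si-Control libraries. Library depth, from the steps, was 94.7%, 96.8% and 76.1% of si-Control replicate 1 for si-NRDE2-2 libraries and 100%, 104.65% and 91.7% for si-Control libraries. At the depth of si-Control replicate 1 the sums became 634, 637 and 536 in si-NRDE2-2 libraries, against 652, 655 and 656 in si-Control libraries. All 3 si-NRDE2-2 sums were lower, that of replicate 3 by most, which is also the shallowest library. The spread between replicates of these fragments, divided by the spread that counting alone gives, was 0.961 pooled over the 55 rows, but members with few fragments had to be above 0 in every library, which lowers this ratio by construction. Over the 9 rows with at least 20 fragments, where no library came near 0, it was 1.03. Intervals given below are exact Poisson intervals at 95% and cover counting error only.

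The labels were checked by the targeted gene. NRDE2 had 0.230, 0.234 and 0.229 FPKM in si-NRDE2-2 libraries, against 4.39, 4.45 and 3.80 FPKM in si-Control libraries, a log2 fold change of -3.70 ± 0.096 (SE; limma, adjusted p = 7.76e-09). Of the markers checked, VIM had a mean of 1131 FPKM in si-NRDE2-2 libraries and 1200 FPKM in si-Control libraries, whereas ESR1, PGR, FOXA1, PTPRC, CD3E, VWF and ALB were all at or under 0.073 FPKM in each library. KRT8 and KRT18, on the luminal list but also used by this line, had 314 and 314 FPKM with si-NRDE2-2 and 314 and 273 FPKM with si-Control, and ERBB2 and GATA3, on the same list, had 10.6 and 2.19 FPKM with si-NRDE2-2 and 12.8 and 2.09 FPKM with si-Control; ERBB2 fell (limma, adjusted p = 0.00133). Of the 8 markers of other cell types, CD68 had 74.7 and 64.0 FPKM, COL1A1 2.51 and 3.74 FPKM and PECAM1 1.1 and 0.616 FPKM with si-NRDE2-2 and si-Control; their part in the results was not tested. The labels do not say how the replicates of a group were obtained, and p-values cover only the spread among these 6 samples, part or all of which may be technical.

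Few snoRNA rows differed between the groups past the threshold. Among the 61 members tested (at least 1 FPKM in at least 3 libraries), 1 rose and 2 fell at an adjusted p under 0.05 (limma), which is 4.92%, whereas 42.5% of all 11948 rows tested passed it, 20.3% higher and 22.2% lower. Non-overlapping groups were found for 6 members (9.84%), 2 higher and 4 lower with si-NRDE2-2, against 52.9% of all rows tested. The low share went with large errors: the median SE of a log2 fold change was 0.49 for members and 0.06 for all rows tested, so changes of the size common elsewhere in the table were not detectable on most of these rows. The median log2 fold change was -0.07 over the tested members and -0.02 over all rows tested. Fold changes are on the log2(FPKM + 0.1) scale and run from -2.25 to 1.16 over the members. At an unadjusted p under 0.05 (limma) there were 6 of the 61 members, against 6042 of all 11948 rows tested.

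**Figure D2:**
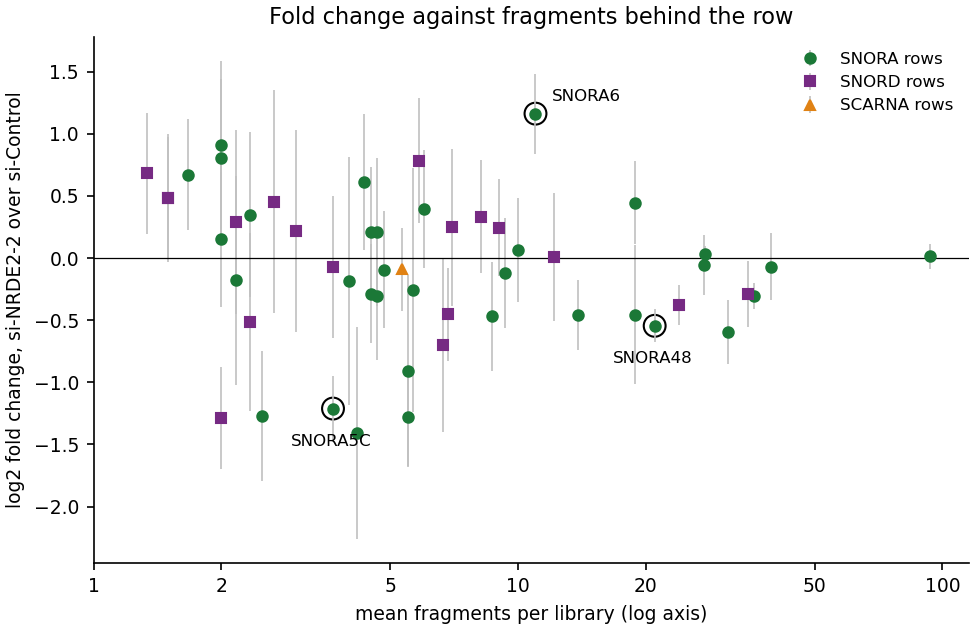
Log2 fold change of si-NRDE2-2 over si-Control (points, with the SE as grey bars) against the mean fragments per library (log axis) for tested members with whole fragments. Rings mark SNORA6, SNORA48 and SNORA5C, the rows past the threshold; the fold changes scatter most on the left, where rows have fewest fragments, and lie between -0.60 and 0.03 for the 9 rows with at least 20.

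SNORA48 fell. It had 59.7, 51.6 and 69.9 FPKM in si-NRDE2-2 libraries, against 93.1, 76.3 and 94.3 FPKM in si-Control libraries. Every si-NRDE2-2 library was below every si-Control library, and the means were 60.4 ± 9.21 FPKM with si-NRDE2-2 and 87.9 ± 10.1 FPKM with si-Control (SD, n = 3 each). The log2 fold change was -0.55 ± 0.13 (SE; limma, adjusted p = 0.0198). In fragments this was 17, 15 and 16 with si-NRDE2-2, against 28, 24 and 26 with si-Control, or 48 in all (35.4 to 63.6) with si-NRDE2-2, against 78 (61.7 to 97.3) with si-Control. The counting intervals of the sums overlap slightly. The SE rests on the spread among libraries, which for this row was smaller than counting error on 48 and 78 fragments gives. SNORA48 is 93.9% identical to another annotated copy, SNORA48B, and the authors' placing of reads between such copies is not stated in the labels. Leaving out si-NRDE2-2 replicate 1 raised the adjusted p to 0.0599, leaving out si-Control replicate 1 to 0.0904, and leaving out si-Control replicate 3 to 0.0966.

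SNORA48 shares its host with SNORA67 and SNORD10, which lie in EIF4A1, the helicase of cap-dependent translation initiation. SNORA67 had 30, 30 and 31 fragments in si-NRDE2-2 libraries, against 41, 42 and 42 in si-Control libraries. Its log2 fold change was -0.30 ± 0.11 (limma, adjusted p = 0.0508), just above the threshold, and in FPKM the groups overlapped. SNORD10, a box C/D RNA, had 4, 6 and 3 fragments with si-NRDE2-2, against 3, 11 and 13 with si-Control, and its log2 fold change of -0.70 ± 0.70 did not pass (adjusted p = 0.483). Summed over the 3 rows, and at the depth of si-Control replicate 1, there were 53.8, 52.7 and 65.7 fragments in si-NRDE2-2 libraries, against 72, 73.6 and 88.3 in si-Control libraries, a ratio of 0.732 with no overlap. SNORA48, already called, gave 48 of the 152 unscaled fragments with si-NRDE2-2 and 78 of the 230 with si-Control. The sum is therefore no separate support for the fall of SNORA48. EIF4A1 itself had 548 ± 6.81 FPKM with si-NRDE2-2 and 574 ± 30.3 FPKM with si-Control, a ratio of 0.954 that did not pass (log2 fold change -0.07 ± 0.05, adjusted p = 0.353). Set against EIF4A1 within each library, SNORA48 was lower by 0.48 on the log2 scale with si-NRDE2-2 than with si-Control, and the 3 ratios of each group did not overlap.

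SNORA5C fell on far fewer fragments. It had 6.56, 6.42 and 8.16 FPKM in si-NRDE2-2 libraries, against 21.7, 11.9 and 16.9 FPKM in si-Control libraries. The groups did not overlap, and the log2 fold change was -1.21 ± 0.26 (limma, adjusted p = 0.0230). Each si-NRDE2-2 library held 2 fragments, against 7, 4 and 5 in si-Control libraries. The sums of 6 fragments (2.20 to 13.1) with si-NRDE2-2 and 16 (9.15 to 26.0) with si-Control have counting intervals that overlap. With 2 fragments in each si-NRDE2-2 library, the SE of this row is also smaller than counting error on these sums gives. The other 2 snoRNAs of TBRG4, a mitochondrial RNA-binding protein, did not pass: SNORA5A had 2, 3 and 1 fragments with si-NRDE2-2, against 1, 2 and 1 with si-Control, and SNORA5B had 1, 3 and 4 with si-NRDE2-2, against 2 in each si-Control library. Over the 3 rows of the host there were 20 fragments (12.2 to 30.9) with si-NRDE2-2 and 26 (16.98 to 38.1) with si-Control. The TBRG4 row rose, with 45.3 ± 1.64 FPKM in si-NRDE2-2 libraries and 41.3 ± 1.26 FPKM in si-Control libraries (log2 fold change 0.13 ± 0.04, limma adjusted p = 0.0339). The call on SNORA5C was lost whichever si-NRDE2-2 library was left out, with adjusted p of 0.0718 (replicate 1), 0.0884 (replicate 2) and 0.0592 (replicate 3), and on leaving out si-Control replicate 3 (0.0662).

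SNORA6 rose, and its host fell. It had 40.4, 24.2 and 41.9 FPKM in si-NRDE2-2 libraries, against 12.8, 20.3 and 13.9 FPKM in si-Control libraries. The lowest si-NRDE2-2 library was above the highest si-Control library, and the log2 fold change was 1.16 ± 0.32 (limma, adjusted p = 0.0493). Its fragments were 18, 11 and 15 with si-NRDE2-2, against 6, 10 and 6 with si-Control, summing to 44 (32.0 to 59.1) with si-NRDE2-2 and 22 (13.8 to 33.3) with si-Control. The SE of SNORA6 is likewise somewhat smaller than counting error on these sums gives. RPSA, the host, encodes a protein of the small ribosomal subunit; it had 635 ± 8.14 FPKM in si-NRDE2-2 libraries and 747 ± 59.2 FPKM in si-Control libraries (log2 fold change -0.23 ± 0.06, limma adjusted p = 0.0140). SNORA62, in the same host, had 12, 13 and 5 fragments with si-NRDE2-2, against 9, 8 and 13 with si-Control, or 30 in each group. Relative to RPSA within each library SNORA6 was higher by 1.39 on the log2 scale with si-NRDE2-2, without overlap. Its call was lost in 5 of the 6 fits that left out a library, with adjusted p up to 0.142.

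**Figure D3:**
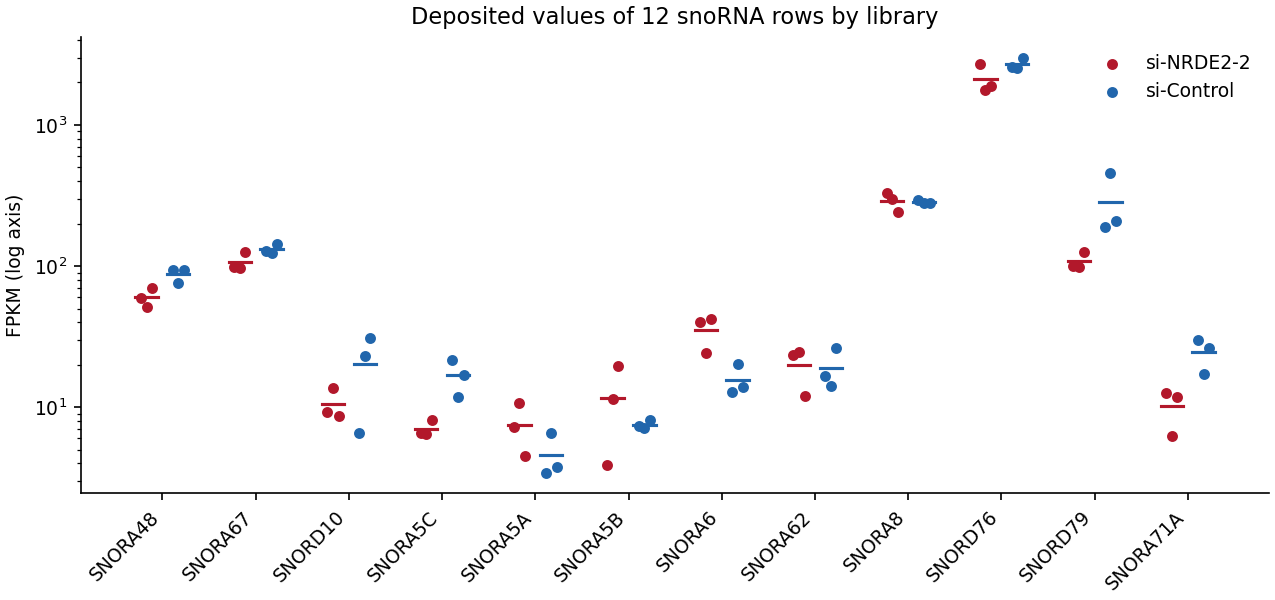
FPKM (log axis) of 12 snoRNA rows in each library, si-NRDE2-2 in red on the left and si-Control in blue on the right of each row; bars are group means. SNORA48, SNORA5C, SNORA71A and SNORD79 have all si-NRDE2-2 points below all si-Control points, SNORA6 has them above, and the other rows overlap.

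Members of other hosts whose groups did not overlap missed the threshold. SNORA71A, in the lncRNA SNHG17, had 4, 2 and 3 fragments with si-NRDE2-2, against 10, 6 and 8 with si-Control, and a log2 fold change of -1.28 ± 0.40 (limma, adjusted p = 0.0671). SNORD79, in the lncRNA GAS5, had 1 fragment in each si-NRDE2-2 library, against 2, 5 and 2 in si-Control libraries (log2 fold change -1.29 ± 0.41, limma adjusted p = 0.0707). SNORA81, in EIF4A2, had 19.2, 19.1 and 19.7 FPKM with si-NRDE2-2, against 13.0, 12.9 and 19.0 FPKM with si-Control, values that are not whole multiples of a step (log2 fold change 0.39 ± 0.16, limma adjusted p = 0.106); it passed with scaling to a common total and without si-Control replicate 3. These 3 rows were chosen after their values were seen.

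The 8 members with the highest mean FPKM showed no call, and 6 of them are SNORD rows of 80 to 90 bases, where 1 fragment is worth most. SNORD76, a box C/D guide in GAS5 with 81 bases, was the highest at 2710, 1768 and 1874 FPKM in si-NRDE2-2 libraries, against 2567, 2544 and 3005 FPKM in si-Control libraries. This was 27, 18 and 15 fragments with si-NRDE2-2, against 27, 28 and 29 with si-Control, with the first si-NRDE2-2 library inside the si-Control range and the others below it (log2 fold change -0.38 ± 0.16, limma adjusted p = 0.103). SNORD104, SNORD35B, SNORD45A and SNORD58C had means over all 6 libraries of 786, 603, 476 and 313 FPKM on 6.83, 12.2, 7 and 8.17 fragments per library. SNORD104 had 7, 5 and 4 fragments with si-NRDE2-2, against 5, 11 and 9 with si-Control. SNORD35B had 12, 20 and 5 fragments with si-NRDE2-2, against 9, 15 and 12 with si-Control, and SNORD45A, in RABGGTB, had 8, 11 and 3 with si-NRDE2-2, against 9, 8 and 3 with si-Control. SNORD58C, in RPL17, had 9, 8 and 8 fragments with si-NRDE2-2, against 4, 11 and 9 with si-Control. SNORD79 was the eighth of these, at 196 FPKM on 2.00 fragments per library. Within each of these SNORD rows other than SNORD79 the groups overlapped.

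SNORA8 and SNORA70 were the H/ACA rows in this group. SNORA8 had 107, 100 and 63 fragments in si-NRDE2-2 libraries, against 101, 100 and 89 in si-Control libraries, the best-sampled row of all. In FPKM these were 328, 300 and 240 with si-NRDE2-2, against 293, 278 and 282 with si-Control, means of 290 ± 44.8 FPKM with si-NRDE2-2 and 284 ± 8.18 FPKM with si-Control (SD, n = 3 each), and the log2 fold change was 0.02 ± 0.10 (limma, adjusted p = 0.918). SNORA70, in RPL10, had 306, 328 and 271 FPKM with si-NRDE2-2, against 276, 286 and 305 FPKM with si-Control, values that are not whole multiples of a step (log2 fold change 0.06 ± 0.07, limma adjusted p = 0.540). The direction of SNORA8 and of SNORA70 flipped under quantile normalization, to -0.039 and -0.010.

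The calls were all of the H/ACA class, and the difference between classes was not tested. Among SNORA rows 3 of 39 tested passed, with a median log2 fold change of -0.09. Among SNORD rows 0 of 18 passed, with 1 at an unadjusted p under 0.05 and a median of 0.23. Among SCARNA rows 0 of 4 passed, with 0 at an unadjusted p under 0.05 and a median of -0.08. At a common depth, SNORA fragments summed to 470, 475 and 407 in si-NRDE2-2 libraries, against 517, 467 and 480 in si-Control libraries, and SNORD fragments to 149, 147 and 113 with si-NRDE2-2, against 118, 170 and 156 with si-Control. Both ranges overlapped between the groups.

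Rows with more fragments had smaller errors. The 9 rows with a mean of at least 20 fragments were SNORA8, SNORA63, SNORA67, SNORD22, SNORA61, SNORA4, SNORA18, SNORD76 and SNORA48. Their median SE was 0.16, against 0.51 for the 44 tested rows under 20 fragments. SNORA48 was the 1 call among them, and their median log2 fold change was -0.29, with 7 below 0 and 2 above. Of all 11948 rows tested 6360 lay below 0 and 5588 above. SNORA61, in SNHG12, had 23, 34 and 15 fragments with si-NRDE2-2, against 35, 47 and 34 with si-Control, and did not pass (log2 fold change -0.60 ± 0.26, limma adjusted p = 0.139). SNORD22, in SNHG1, had 30, 38 and 21 with si-NRDE2-2, against 29, 46 and 45 with si-Control. SNORA63, in EIF4A2, had 44, 40 and 25 with si-NRDE2-2, against 56, 43 and 29 with si-Control. SNORA4, in the same host, had 27, 32 and 21 with si-NRDE2-2, against 30, 30 and 26 with si-Control, and all 3 of these rows overlapped between the groups. Fragments on these rows can come from host transcripts, so the host rows are given beside them. SNHG12 fell by 0.35 on the log2 scale (limma, adjusted p = 2.46e-04). SNHG1 fell by 0.28 (adjusted p = 0.00118), beside -0.29 for SNORD22. EIF4A2 was at -0.05 (adjusted p = 0.483), beside -0.07 for SNORA63 and 0.03 for SNORA4. Whether less host RNA accounts for fewer fragments was not tested. Those of the 9 rows that share TAF1D, EIF4A1 or EIF4A2 are not independent.

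Hosts were found for 63 members, in 44 genes, of which 12 hold 2 or more members and 31 of the member rows. Of 43 hosts tested 5 rose and 18 fell (limma, adjusted p under 0.05), or 53.5%, beside the 42.5% of all rows. The largest host changes were TOMM20, the mitochondrial import receptor, with 76.4 ± 1.85 FPKM in si-NRDE2-2 libraries and 36.0 ± 1.23 FPKM in si-Control libraries (log2 fold change 1.08, adjusted p = 5.87e-08), and RNF149, a ubiquitin ligase, with 15.1 ± 0.314 FPKM with si-NRDE2-2 and 24.2 ± 1.25 FPKM with si-Control (log2 fold change -0.67, adjusted p = 3.30e-06). Their snoRNA rows are too thin to follow them: SNORA14B in TOMM20 had 3, 2 and 1 fragments in each group, and SNORD89 in RNF149 had 5, 2 and 3 with si-NRDE2-2, against 6, 4 and 2 with si-Control.

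Of the hosts 11 are lncRNAs, several of which are known mainly for the snoRNAs in their introns. Among these 5 fell (GAS5, SNHG17, SNHG12, SNHG1 and SNHG15), 0 rose, 5 did not pass (SNHG7, SNHG8, SNHG10, SNHG20 and EPB41L4A-AS1, with log2 fold changes from -0.15 to 0.04) and SNHG22 was not tested. Over all rows tested 22.2% fell and 20.3% rose. The fallen hosts with at least 2 rows are given here. GAS5 fell, with 255 ± 14.6 FPKM in si-NRDE2-2 libraries and 376 ± 40.8 FPKM in si-Control libraries (log2 fold change -0.55 ± 0.08, limma adjusted p = 2.48e-04). Its 2 snoRNA rows together had 29.6, 19.6 and 21.0 fragments at a common depth with si-NRDE2-2, against 29, 31.5 and 33.8 with si-Control, a ratio of 0.7503 beside 0.679 for GAS5. SNHG17 fell, with 13.9 ± 0.701 FPKM with si-NRDE2-2 and 20.7 ± 0.243 FPKM with si-Control (adjusted p = 9.07e-06), and its 3 rows SNORA71A, SNORA71B and SNORA71C summed to 12.7, 10.3 and 10.5 fragments with si-NRDE2-2, against 21, 13.4 and 21.8 with si-Control, a ratio of 0.604 beside 0.671 for the host. SNHG12 fell, with 17.7 ± 0.361 FPKM with si-NRDE2-2 and 22.5 ± 1.14 FPKM with si-Control (adjusted p = 2.46e-04), and SNORA61 with SNORA16A summed to 30.6, 36.2 and 21.0 with si-NRDE2-2, against 43, 48.7 and 42.5 with si-Control, a ratio of 0.666 beside 0.784. In SNHG12 and SNHG17 no si-NRDE2-2 library overlapped a si-Control library, and in GAS5 1 did. The SNHG17 and GAS5 sums hold SNORA71A and SNORD79, named above because their groups did not overlap, so they are no separate support. Counting intervals of the unscaled sums overlapped in SNHG17 (20.2 to 42.8 with si-NRDE2-2, 41.4 to 71.6 with si-Control). They also overlapped in GAS5 (48.4 to 80.6 and 75.1 to 113.9), but not in SNHG12 (63.4 to 99.6 and 111.4 to 157.6). Over all 14 tested rows in lncRNA hosts 0 passed, with 2 at an unadjusted p under 0.05, the median log2 fold change was -0.34, and 12 lay below 0. Over the 45 tested rows in protein-coding hosts 1 rose and 2 fell, the median was 0.07, and 18 lay below 0. Of all 11948 rows tested 6360 lay below 0. Rows of the same host share its transcripts and are not independent.

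In TAF1D, a subunit of the RNA polymerase I selectivity factor and the host with most members, rows and host did not move alike. TAF1D had 55.9 ± 1.70 FPKM in si-NRDE2-2 libraries and 65.2 ± 0.942 FPKM in si-Control libraries, and fell (log2 fold change -0.22 ± 0.04, limma adjusted p = 0.00176). SNORA8, SNORA18, SNORA25 and SNORA32 together had 177, 165 and 127 fragments at a common depth with si-NRDE2-2, against 164, 149 and 138 with si-Control, a ratio of 1.05 with overlap. SNORA40, the fifth row there, did not come out in whole fragments. In EIF4A2 SNORA4 and SNORA63 summed to 74.95, 74.4 and 60.4 fragments with si-NRDE2-2, against 86, 69.8 and 59.95 with si-Control, a ratio of 0.978 beside 0.966 for the host, which did not pass.

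**Figure D4:**
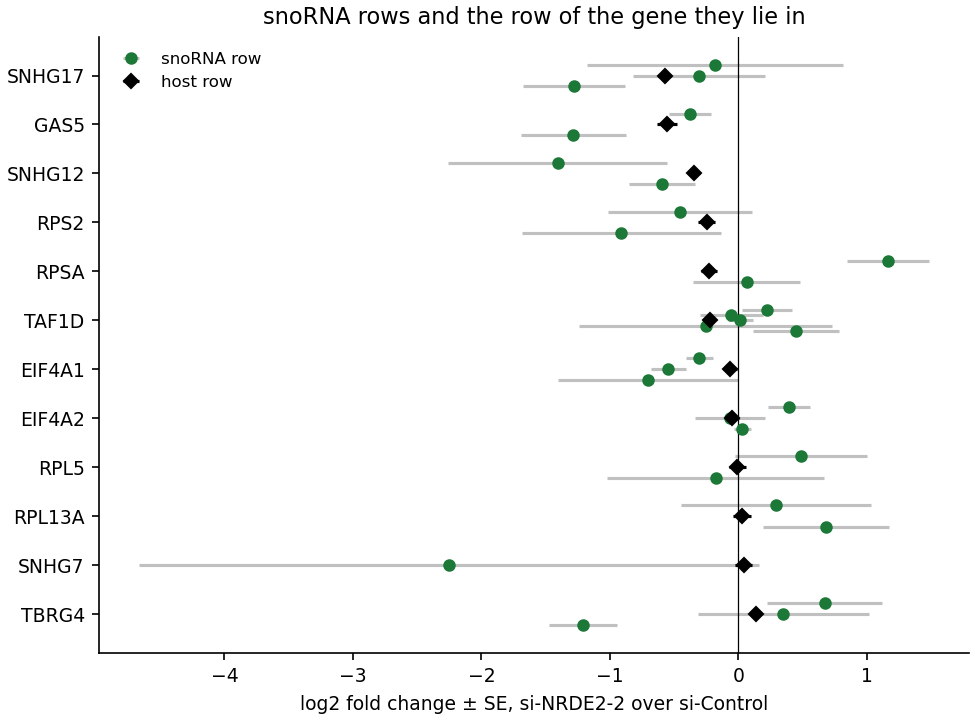
Log2 fold change ± SE of si-NRDE2-2 over si-Control for snoRNA rows (green circles) and for the host row (black diamonds), for the 12 hosts with at least 2 members, from the lowest host at the top. Host errors are much smaller than those of their snoRNA rows; in SNHG17, GAS5 and SNHG12 host and snoRNA rows all lie below 0, and in RPSA both rows lie above 0 and the host below. Rows on the other side of 0 from their host are also seen in TAF1D (3 of 5), EIF4A2 (2 of 3), RPL5, SNHG7 and TBRG4 (1 each).

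Over the 59 member and host pairs tested, the difference between the log2 fold change of the row and that of its host had a median of 0.17, with 33 pairs above 0 and 26 below. Relative to the si-Control mean, the median row-to-host log2 ratio was 0.20, 0.23 and -0.08 in si-NRDE2-2 libraries, against 0.06, -0.004 and -0.05 in si-Control libraries, so the groups overlapped. The ratio did not overlap between the groups for 5 of the 59 pairs (8.47%), 3 of which are the rows called on their own values: SNORA6, SNORA81 and SNORA70 were higher relative to their hosts with si-NRDE2-2, and SNORA5C and SNORA48 lower. Placement in the host also went with depth. The 39 members wholly inside an annotated exon of a host transcript had a median of 7.58 fragments per library (32 rows with whole fragments). The 22 not wholly inside such an exon, which may overlap one in part, had 3.67 (19 rows).

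The proteins that bind, assemble and trim these RNAs were read from mRNA in the same libraries. Of 66 such genes tested, 11 rose and 15 fell (39.4%, beside 42.5% of all rows). The 15 include NRDE2, the target of the siRNA. Among the 4 box C/D core proteins 3 fell. FBL, the methyltransferase fibrillarin, had 123 ± 2.5 FPKM in si-NRDE2-2 libraries and 145 ± 7.32 FPKM in si-Control libraries (log2 fold change -0.23, limma adjusted p = 0.00348), and NOP56 (-0.18) and NOP58 (-0.15) fell by less; NHP2L1 was at -0.03 (adjusted p = 0.672). Among the 4 box H/ACA core proteins DKC1, the pseudouridine synthase dyskerin, fell (log2 fold change -0.16, adjusted p = 0.0172), whereas NHP2, NOP10 and GAR1 lay between -0.01 and 0.02 without passing.

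Of 13 snoRNP assembly factors 2 rose and 2 fell. ZNHIT6, a box C/D assembly factor, had 7.96 ± 0.122 FPKM in si-NRDE2-2 libraries and 4.59 ± 0.0345 FPKM in si-Control libraries (log2 fold change 0.78 ± 0.05, limma adjusted p = 1.66e-06), and PIH1D1, of the R2TP chaperone complex, rose by 0.49. C12orf45 fell by 0.36 and NVL by 0.24 on the log2 scale. Of 11 Cajal body, cap and export factors 3 rose and 4 fell. NCBP1, the large subunit of the nuclear cap-binding complex, fell (log2 fold change -0.50 ± 0.06, limma adjusted p = 1.08e-04) while NCBP2, the small subunit, rose by 0.15. TOE1 rose by 0.34, and GEMIN2 and GEMIN5 fell by 0.26 and 0.24. WRAP53, which brings scaRNAs to Cajal bodies, fell by 0.23, and COIL, the Cajal body scaffold coilin, rose by 0.18.

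Of 28 genes for trimming, adenylation and decay of snoRNA ends, 5 rose and 4 fell, with NRDE2 itself among those that fell. C1D, an exosome cofactor, had 15.01 ± 1.85 FPKM in si-NRDE2-2 libraries and 7.61 ± 0.557 FPKM in si-Control libraries (log2 fold change 0.97 ± 0.09, limma adjusted p = 2.31e-05), the largest rise on these lists. EXOSC3 of the exosome cap rose by 0.29, and EXOSC5 of the exosome ring fell by 0.34. Of 6 genes of lariat release and snoRNA-coupled splicing, the helicase DHX8 rose by 0.28 and the helicase DHX15 fell by 0.18.

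At the edge of the membership rule, values were far from a whole fragment. SNORD86, in NOP56, was above 0 only in name, with a highest value of 3.13e-38 FPKM, and SNORA43, in SNHG7, had 3.60 FPKM in si-NRDE2-2 replicate 2, 1.13 FPKM in si-Control replicate 3 and at most 1.83e-14 FPKM in the other 4 libraries. SNORA17 and SCARNA13 had their lowest values in si-NRDE2-2 replicate 3, at 4.09e-18 and 0.0186 FPKM. Just outside, SNORD45C, SNORD83A, SNORD88B and SNORD16 were at 0 in 1 library and reached 589, 182, 174 and 89.0 FPKM, on at most 3, 8, 8 and 5 fragments. In all 10 members, these 4 inside among them, did not come out in whole fragments.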

How the data were processed

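RNA was measured in 3 si-NRDE2-2 and 3 si-Control libraries, grouped by sample title, with columns matched through the descriptions. The authors deposited FPKM values per gene and library, of the hg19 build per the submitters' processing notes, which also name STAR 2.5.1b and DESeq2 1.10.1 with no role. The program that made the FPKM is hinted at only by the word Cuff in the name of the deposited values. Its version, annotation and strand setting are not given in the sources used here. Another 4 columns were not used.

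Every row reaching 1 FPKM in 3 or more libraries was fitted with limma 3.58.1 (R 4.3.3) on log2(FPKM + 0.1), with a trended, robust prior and Benjamini-Hochberg adjustment over 11948 rows. The pseudocount understates changes of low rows. The fit was tested on simulated data. Total counts are not in the table, so relative depth and fragments came from the steps between low values (67 row lengths). This depth is the library scaling held in the values and was not checked against sequenced reads. Hosts are the same-strand GENCODE 29 genes that contain a row, with RefSeq synonyms for names. Where several such genes had a row, the shortest was taken. SNORD76 and SNORD79 have no GENCODE entry, so their host GAS5 came from RefSeq spans without a check of strand. Copies were aligned with blastn 2.17.0+.

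Members and lists were chosen with earlier results of these data known. Named rows are NRDE2, members past the threshold, the 8 highest, those at the edge of the rule, genes with their own promoter, hosts, and up to 4 called genes per list; others were added after their values were seen. Alternatives covered pseudocount, filter, scaling, prior, replicate block and leaving out each library; class medians were added later.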

Additional observations from a re-analysis of the deposited data

How the results depend on the processing

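The count of members past the threshold was 3 in the fit as reported and stayed at 2 or 3 under both other pseudocounts, both other filters and both other scalings. It became 5 without the trended, robust prior, where SNORA71A and SNORD79 were added, and 9 with the replicate block, where SNORA6 was lost (adjusted p = 0.198). Replicate numbers do not pair the samples: same-numbered libraries had correlations of -0.12, 0.11 and -0.12 between their deviations. Leaving out a library gave 1 to 5 calls, fewest on dropping si-Control replicate 3 (SNORA81) and most on dropping si-NRDE2-2 replicate 1 (SCARNA12, SNORA53, SNORA16A, SNORA40 and SNORD76); neither fit holds any of the 3 reported calls. SNORA81 also passed with scaling to a common total and with the block. SNORA6 also missed the threshold with no filter (0.0508) and with scaling to a common total (0.0528), SNORA5C under neither, nor SNORA48. SNORD79 had an adjusted p of 0.0205 without the trended prior and 2.51e-04 without si-Control replicate 2; SNORD76 had 0.00243 without si-NRDE2-2 replicate 1, and SNORD104 0.0280 without si-Control replicate 1. The cause was not tested. Signs of uncalled rows turned when a library was left out, with log2 fold changes from -0.38 to 0.44 for SNORD35B, -0.20 to 0.69 for SNORD45A, -0.11 to 0.58 for SNORD58C, -0.081 to 0.14 for SNORA8 and -0.005 to 0.13 for SNORA70; quantile normalization gave -0.039 for SNORA8 and -0.01 for SNORA70. Over the same 6 fits the member median ran from -0.14 to 0.04, the row-to-host median from 0.03 to 0.21, the SNORD median from -0.08 to 0.35, the SNORA median from -0.17 to 0.03, and the snoRNP and processing genes called from 19 to 29. NRDE2 ran from -3.71 to -3.70 in the 3 fits that left out a si-NRDE2-2 library; it did not reach the filter when a si-Control library was left out, or with a mean of at least 5. Depth limits all of this: most rows hold fewer than 20 fragments a library.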

Other observations

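The snoRNA and scaRNA rows that were above 0 in some but not all libraries numbered 100, of which 87 came out in whole fragments. They held 94, 74 and 33 fragments in si-NRDE2-2 libraries, against 85, 113 and 69 in si-Control libraries. These sums were not scaled for depth, which was lowest in si-NRDE2-2 replicate 3 (76.1% of si-Control replicate 1) and highest in si-Control replicate 2 (104.65%). Both groups were seen on 62 of the 100 rows, si-NRDE2-2 libraries only on 19 and si-Control libraries only on 19.

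Near copies were counted for the 62 members with a GENCODE sequence. Another annotated locus matched at 95% identity or more over at least 90% of the length for 2 of them, SNORA10 and SNORA40, and at 90% or more for 17.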
